A study of Mus musculus with 6 samples.

Results

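The genes described here encode the nuclear subunits and part of the assembly factors of respiratory complex I in a mouse β-cell line. Members were all genes whose symbol begins with *Nduf*, which gave 48 of the 16640 genes in the deposited table. The family was chosen from the comparison of *Thada*-activated with control cells in these same libraries, where a set of complex I assembly genes had ranked high. The differences of the members in that comparison are therefore given as a description, and no test of them is used as support. Replicate 3 was likewise singled out from these data, so its differences are a description too.

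RNA was sequenced on the BGISEQ-500 platform from MIN6 cells, a mouse insulinoma line used as a model of pancreatic β-cells, with 3 control and 3 *Thada*-activated libraries. *Thada*-activated cells carried a lentiviral CRISPR activation system of dCas9-VP64 with an sgRNA against the *Thada* promoter and the MS2-P65-HSF1 activator, and were selected with puromycin and then G418. Control cells received lentiviruses for dCas9 and a non-targeting sgRNA. The study's reporting summary says in general that in vitro work was repeated in independent experiments, but no source used here says which of these libraries came from separate cultures. The p-values therefore measure only the spread between these libraries, which may be technical. Both conditions are stable lines of an insulinoma, and the activated line rests on 1 guide. Library totals ran from 17166511 to 17727004 counts.

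Markers of β-cells were checked first. Of 10 listed genes, 9 were above 1 CPM (counts scaled to the library size by the TMM method) in every library, led by *Ins2*. In control replicates 1, 2 and 3, *Ins2* stood at 64432, 56429 and 103050 CPM, and in the *Thada*-activated replicates at 64296, 62902 and 81917 CPM. The exception was *Slc2a2*, the glucose transporter of mouse β-cells, at 0.0574 to 0.512 CPM. Summed over the list, which *Ins2* dominates, β-cell markers stood between 95019 and 129050 CPM. Other markers were lower in replicate 3. *Abcc8*, a subunit of the KATP channel, had 1674, 1532 and 302 CPM in control and 1543, 1656 and 430 CPM in *Thada*-activated replicates. *Pdx1*, a β-cell transcription factor, had 233, 205 and 106 CPM in control and 229, 222 and 112 CPM in *Thada*-activated replicates. Markers of other islet cells summed to between 111 and 198 CPM over 4 genes, led by *Sst* in every library, and *Ghrl* stayed at or below 0.116 CPM. Of the acinar list, *Amy2a1* was the only gene in the table and reached at most 0.0563 CPM. The duct, fibroblast, endothelial and blood lists each summed to at most 3.7 CPM in a library.

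*Thada*, the targeted gene, had 28.1, 28.9 and 17.2 CPM in the control replicates and 57.3, 56.2 and 49.1 CPM in the *Thada*-activated replicates. All *Thada*-activated libraries were above all control libraries. The log2 fold change was 1.13 with a standard error of 0.22, and its adjusted p was 1 in the quasi-likelihood test of edgeR without a block. Once the replicate number entered the model as a block, the log2 fold change was 1.15 with a standard error of 0.10 and an edgeR adjusted p of 0.00041. An exact permutation test over 3 against 3 libraries cannot give a p below 0.1.

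Complex I (NADH:ubiquinone oxidoreductase) takes electrons from NADH, passes them along a flavin and a chain of iron-sulfur clusters to ubiquinone, and pumps protons across the inner mitochondrial membrane. Its peripheral arm, which stands in the matrix, holds the core subunits for electron transfer, while the membrane arm holds the proton pumps, whose core subunits are encoded by mitochondrial DNA. Around these lie supernumerary subunits, which stabilise the enzyme, and separate assembly factors help to build it without staying in it. In β-cells, ATP made by the respiratory chain closes the KATP channels, which leads to insulin release.

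The 48 genes comprised 7 nuclear core subunits, 31 supernumerary subunits, 8 assembly factors, and *Ndufa4* with its relative *Ndufa4l2*. Of the supernumerary subunits, 9 belong to the peripheral arm, 9 to the proximal and 12 to the distal membrane arm, and *Ndufab1* is the mitochondrial acyl carrier protein. The filter on low counts kept 46 members among 12516 genes tested. The remaining 2 were *Ndufa4l2*, with 3 to 9 counts a library, and *Ndufb4b*, which had no count in any *Thada*-activated library and at most 3 in a control library. Both groups of *Ndufb4b* were at or under the floor of 3 counts a library, so no fold is given. No gene in the table carried a symbol of the mitochondrially encoded subunits, and these were not analysed here.

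Levels between genes were compared on FPKM, which divides by transcript length. Over the 6 libraries the mean FPKM of the supernumerary subunits was highest for *Ndufb8* (333), *Ndufv3* (289) and *Ndufa3* (274). At the other end stood *Ndufb4b* (0.107), *Ndufa11* (28.1) and *Ndufb4c* (29.7). The median FPKM of the tested members was 134 for the supernumerary subunits, 68.8 for the core subunits and 14.6 for the assembly factors, against 11.6 for all tested genes. The assembly factors, which are not part of the finished enzyme, were thus the least abundant of these groups. *Ndufb4*, *Ndufb4b* and *Ndufb4c* are close copies that can share reads, so the split of counts among them is uncertain.

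In the comparison of *Thada*-activated with control cells, 39 of 46 tested members had a log2 fold change above 0 (background 48.7% of all tested genes). The median log2 fold change was 0.09, a difference of 6.72%, against -0.00 over all tested genes. Single members lay between -0.09 and 0.27. None was called at an adjusted p under 0.05 and a fold change over 1.5 by edgeR, where 0 of 12516 genes passed (background 0%). At an unadjusted edgeR p under 0.05 there were 0 members, beside 101 of the 12516 genes. DESeq2 called 5 genes in all and 0 members, with 1 member at an unadjusted p under 0.05, beside 0.722% of 16619 genes. With the replicate block edgeR called 19 genes (background 0.152%), again with 0 members. There, 11 members had an unadjusted p under 0.05, all of them higher in *Thada*-activated cells (background 6.06%). These shares follow from the way the family was chosen and are not read further.

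**Figure D1:**
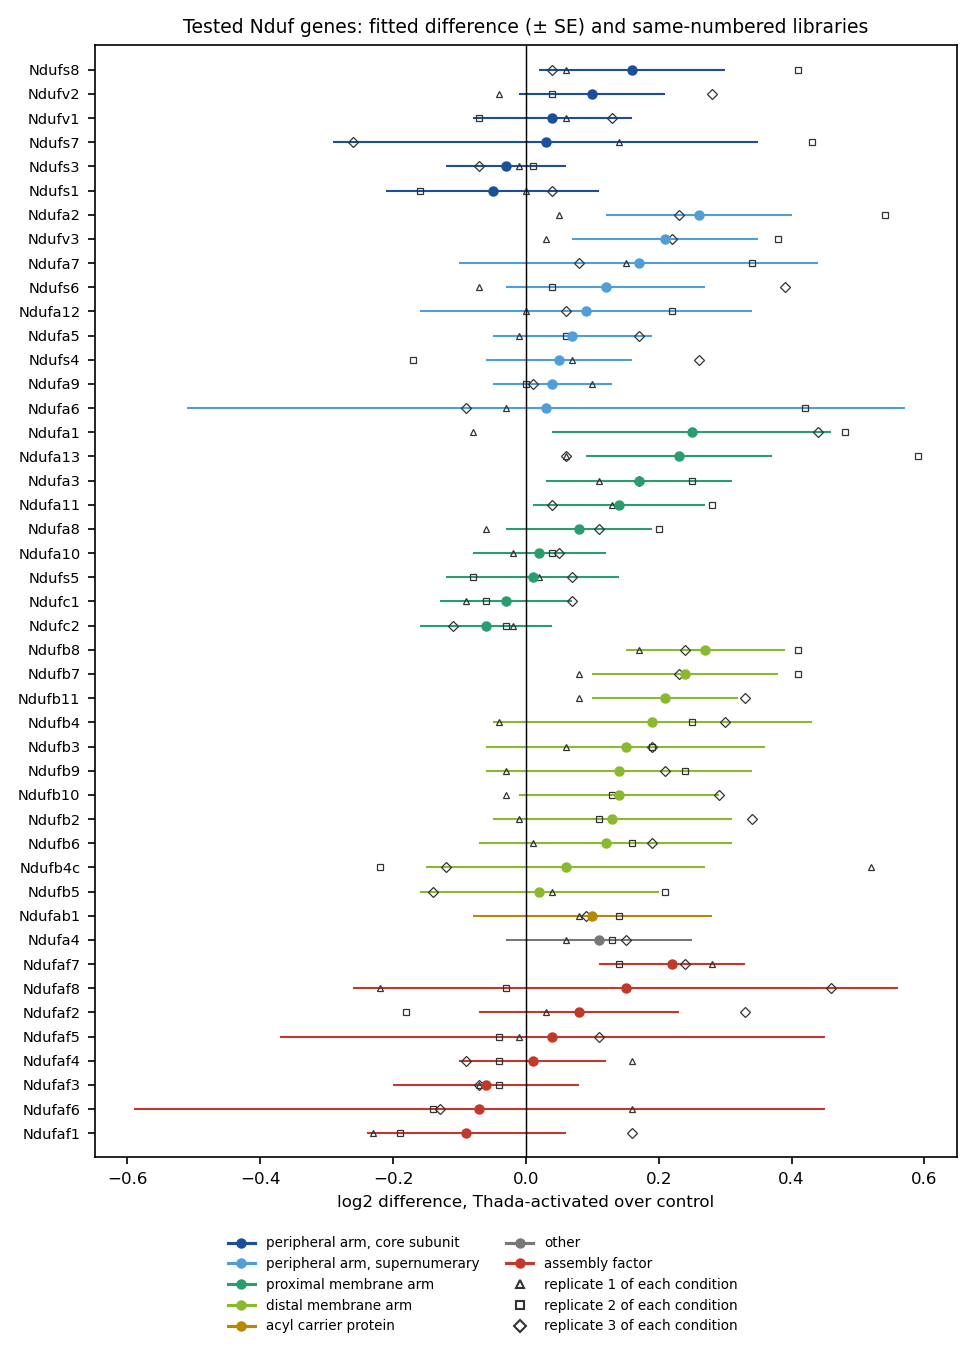
Log2 difference of Thada-activated over control cells for tested Nduf genes, grouped by role. Filled circles with bars are the fitted difference ± standard error over 3 libraries a condition, and open symbols are the differences between libraries of the same number. All 11 distal membrane arm genes lie above 0 by the fit, from 0.02 to 0.27.

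The supernumerary subunits of the distal membrane arm, the part farthest from the matrix arm, had a median log2 fold change of 0.14 over 11 tested genes, all above 0. Leaving out 1 library brought 8 of the 11 to 0 or below in at least 1 fit, and between the replicate 1 libraries 7 of 11 were higher, with a median of 0.04. Fits without a library, here and below, had no block, so leaving out 1 replicate 3 library left the other unmatched. *Ndufb8*, a single-pass membrane subunit often used as a marker of assembled complex I, had 159, 131 and 161 CPM in control replicates and 179, 175 and 189 CPM in *Thada*-activated replicates. Every *Thada*-activated library exceeded every control library. Its log2 fold change was 0.27 with a standard error of 0.12 (150 ± 16.5 against 181 ± 7.45 CPM, SD, n = 3 each). With the block the standard error was 0.07 and the edgeR adjusted p was 0.141, the lowest among the members. *Ndufb7*, which faces the intermembrane space, had 53.4, 43.8 and 41 CPM in control and 56.3, 58.4 and 48 CPM in *Thada*-activated replicates. The groups overlapped, since *Thada*-activated replicate 3 lay below control replicate 1, and the log2 fold change was 0.24 with a standard error of 0.14. *Ndufb5* was the lowest of this arm. It had 64.5, 60.5 and 88.9 CPM in control and 66.2, 69.9 and 80.7 CPM in *Thada*-activated replicates, a log2 fold change of 0.02 with a standard error of 0.18. *Ndufb4c* stood at 0.06 with a standard error of 0.21.

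In the peripheral arm, the 9 supernumerary subunits had a median log2 fold change of 0.09, and all 9 were above 0. Leaving out 1 library brought 4 of them to 0 or below in at least 1 fit, and between the replicate 1 libraries 5 of 9 were higher. *Ndufa2*, a small subunit with a thioredoxin-like fold, had 34.4, 26.2 and 33.2 CPM in control and 35.6, 38 and 39 CPM in *Thada*-activated replicates. The groups did not overlap, although control replicate 1 and *Thada*-activated replicate 1 lay only 0.05 apart on the log2 scale. Its log2 fold change was 0.26 with a standard error of 0.14. *Ndufv3*, a small subunit of the NADH-binding module, had 107, 85.5 and 110 CPM in control and 109, 111 and 129 CPM in *Thada*-activated replicates. Its log2 fold change was 0.21 with a standard error of 0.14, and control replicate 2 was the library that stood low.

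The 7 core subunits, which carry the flavin and the iron-sulfur clusters, had a median log2 fold change of 0.04, with 5 of 7 above 0. In at least 1 fit without a library, 5 of the 7 were at 0 or below. Between the replicate 1 libraries 4 of 7 were higher. *Ndufs1*, the largest iron-sulfur subunit, had 97.9, 108 and 77 CPM in control and 98.1, 96.8 and 79.3 CPM in *Thada*-activated replicates. Its log2 fold change of -0.05 (standard error 0.16) was the lowest of the core. *Ndufs8*, which carries iron-sulfur clusters on the way to ubiquinone, had 37.4, 27.9 and 36.9 CPM in control and 39, 37 and 38 CPM in *Thada*-activated replicates. Here too control replicate 2 was low, and the log2 fold change was 0.16 with a standard error of 0.14. For *Ndufv2* it was 0.10, and for *Ndufv1*, the subunit that binds NADH and the flavin, it was 0.04. For *Ndufs7* it was 0.03 and for *Ndufs3* -0.03. None of these exceeded the spread between libraries.

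The proximal membrane arm held members on both sides of 0. *Ndufa1*, a small membrane subunit encoded on the X chromosome, had 64.5, 44.5 and 38.7 CPM in control and 61.1, 62.2 and 52.4 CPM in *Thada*-activated replicates. The difference was -0.08 between the replicate 1 libraries, 0.48 between the replicate 2 libraries and 0.44 between the replicate 3 libraries. The fitted log2 fold change was 0.25 with a standard error of 0.21. *Ndufa3*, also a small membrane subunit, was at 0.17 with a standard error of 0.14. *Ndufa11*, which lies where complex I meets complex III in the supercomplex, was at 0.14 with a standard error of 0.13. *Ndufc2* had 123, 110 and 126 CPM in control and 121, 108 and 116 CPM in *Thada*-activated replicates, and was at -0.06 with a standard error of 0.10. *Ndufc1* was at -0.03 and *Ndufs5*, which has the cysteine motif of proteins of the intermembrane space, at 0.01. Over the 9 genes of this arm the median was 0.08, with 7 above 0. In at least 1 fit without a library, 4 of the 9 were at 0 or below. Between the replicate 1 libraries 4 of 9 were higher, with a median of -0.02.

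Assembly factors had a median log2 fold change of 0.03, with 5 of 8 above 0. In at least 1 fit without a library, 7 of the 8 were at 0 or below. Between the replicate 1, 2 and 3 libraries 4, 1 and 5 of 8 were higher, with medians of 0.01, -0.04 and 0.13. *Ndufaf7*, a methyltransferase of the mitochondrial matrix, had 17.6, 18.9 and 16.6 CPM in control and 21.5, 20.8 and 19.7 CPM in *Thada*-activated replicates. Its groups did not overlap, and the log2 fold change was 0.22 with a standard error of 0.11. *Ndufaf1*, a factor of membrane arm assembly, had 11.4, 11.9 and 9.64 CPM in control and 9.69, 10.5 and 10.7 CPM in *Thada*-activated replicates, which gave -0.09 with a standard error of 0.15. *Ndufaf8*, which acts with *Ndufaf5*, was at 0.15 and *Ndufaf2*, which helps to complete the peripheral arm, at 0.08. *Ndufaf5*, a hydroxylase that modifies the product of *Ndufs7*, was at 0.04. *Ndufaf4* was at 0.01, its partner *Ndufaf3* at -0.06 and *Ndufaf6* at -0.07. *Ndufa4*, first described with complex I and now assigned to complex IV, was at 0.11 with a standard error of 0.14.

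Libraries of the same number were compared next. Across genes, the deviations from the condition mean matched the numbers only for replicate 3, with a correlation of 0.869. Control replicate 1 was closer to *Thada*-activated replicate 2 (0.705) than to *Thada*-activated replicate 1 (0.667). Control replicate 2 was closer to *Thada*-activated replicate 1 (0.726) than to *Thada*-activated replicate 2 (0.671). Pairs 1 and 2 below therefore rest on the sample titles alone. Of 46 tested members, 26 were higher in *Thada*-activated than in control replicate 1, 32 in replicate 2 and 37 in replicate 3. The median log2 differences of the pairs were 0.03, 0.13 and 0.12. In all 3 pairs 16 members were higher (background 16.3%) and 2 were lower (background 16.7%). Only 5 members, *Ndufb8*, *Ndufb11*, *Ndufa2*, *Ndufa13* and *Ndufaf7*, had every *Thada*-activated library above every control library (background 2.7%), and *Ndufb11* and *Ndufa13* are named after their values were seen. The replicate 1 libraries thus differed little for this family.

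Single libraries moved the difference. Summed over the 48 genes, the level was 2743, 2456 and 2919 CPM in control replicates 1, 2 and 3 and 2810, 2750 and 3151 CPM in the *Thada*-activated replicates. Control replicate 2 was the lowest library and held the lowest value of 22 of the 46 tested members, against 16.4% of all tested genes. *Thada*-activated replicate 3 was the highest and held the highest value of 22, against 21% of all tested genes. Without control replicate 2 the median log2 fold change was 0.036, and without *Thada*-activated replicate 3 it was -0.001, with 21 of 46 members above 0. Without *Thada*-activated replicate 2 it was 0.172 and without control replicate 3 it was 0.167. Leaving out 1 replicate 3 library leaves the other unmatched. With both replicate 3 libraries left out the median was 0.069, with 33 members above 0.

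**Figure D2:**
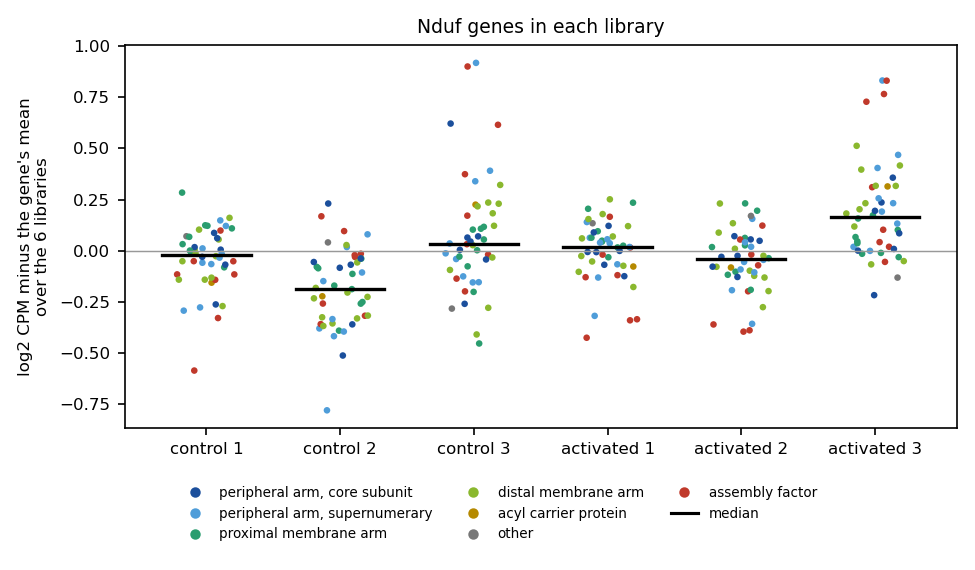
Level of each of the 46 tested Nduf genes in each library, as log2 CPM minus the mean of that gene over the 6 libraries, with the median as a black line. The median is lowest in control replicate 2 (-0.18) and highest in Thada-activated replicate 3 (0.17).

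The family also varied between libraries of the same condition. Control replicate 2 lay below control replicate 1 by a median log2 difference of -0.15, with 12 of 46 members higher. Control replicate 3 lay above control replicates 1 and 2 by 0.04 and 0.20, with 27 and 33 members higher. In *Thada*-activated cells replicate 2 lay below replicate 1 by -0.03, with 16 members higher. *Thada*-activated replicate 3 lay above replicates 1 and 2 by 0.14 and 0.19, with 31 and 35 members higher. Each of these medians was 0.00 in size over all tested genes.

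Transcript length moved with the difference, and its part in the result was not tested. Lengths were the effective lengths implied by the deposited counts and FPKM, with bins chosen after the values were seen. The 24 members from 300 to 600 nucleotides had a median log2 fold change of 0.13, and the 307 other tested genes of that length had 0.08. The 8 members from 1000 to 2000 nucleotides had 0.04, beside 0.01 for the 2914 other genes, and the 3 from 2000 to 4000 had 0.01, beside -0.01. In the remaining bins the members lay below the other genes, with 0.17 beside 0.25 for the 3 members under 300 nucleotides and 0.03 beside 0.04 for the 8 from 600 to 1000. The pairs of libraries differed in this. From 300 to 600 nucleotides the members and the other genes stood at 0.01 and 0.05 for replicate 1, at 0.18 and 0.15 for replicate 2, and at 0.19 and 0.06 for replicate 3. Across the 46 members, which share the same libraries and are not independent, Spearman's rho of length and log2 fold change was -0.39, and over the 12470 other genes it was -0.14. In the replicate 1 libraries rho over the members was 0.19, and in replicates 2 and 3 it was -0.27 and -0.36. Over the other genes it was -0.17, -0.19 and 0.03, so the members ran against the other genes in replicates 1 and 3. The core subunits had a median effective length of 1383 nucleotides and the supernumerary subunits one of 461.

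Replicate 3 libraries stood apart from replicates 1 and 2 in both conditions. In that comparison edgeR called 3893 of 12516 genes at the same thresholds. Of the 46 tested members, 6 were called higher in replicate 3 (background 15.7%) and 0 lower (background 15.4%). At an adjusted p under 0.05 without a fold limit, 18 members were higher (background 34.3%) and 5 were lower (background 34.4%). The median log2 difference was 0.12, with 34 of 46 members above 0, against 0.00 over all tested genes. Transcript length moved with this difference over the 12470 other tested genes (Spearman's rho -0.22), but little over the 46 members (-0.08). Members and other tested genes stood at 0.01 and 0.34 under 300 nucleotides, and at 0.21 and 0.31 from 300 to 600. From 1000 to 2000 they stood at 0.01 and 0.13, and from 2000 to 4000 at -0.02 and 0.01. Only from 600 to 1000 did the members lie above, with 0.29 beside 0.19. The part of length was not tested. The median size of the difference was 0.21 for members and 0.38 for all tested genes, so the typical member differed less than the typical gene. It was 0.23 for ATP synthase, 0.26 for mitochondrial ribosomal proteins, and 0.34, 0.36 and 0.41 for complexes II, III and IV. Members also had a higher median FPKM, 83.2 beside 11.6 for all tested genes, and the part of level was not tested. Markers of β-cells such as *Abcc8* and *Pdx1* were lower and *Ins2* was higher in the same libraries, and their part in these differences was not tested.

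*Ndufa6*, a subunit of the peripheral arm that contacts the acyl carrier protein, showed the largest difference of the members. It had 56.2, 40 and 130 CPM in control and 55.2, 53.7 and 123 CPM in *Thada*-activated replicates. Both replicate 3 libraries were far above the other 4, with a log2 difference of 1.30 and a standard error of 0.11. *Ndufaf6* had 5.68, 7.16 and 16.1 CPM in control and 6.36, 6.5 and 14.7 CPM in *Thada*-activated replicates, a log2 difference of 1.26 with a standard error of 0.12. *Ndufaf5* had 16.3, 16.5 and 31.6 CPM in control and 16.3, 16 and 34.1 CPM in *Thada*-activated replicates, with 1.01 and a standard error of 0.08. For both assembly factors the replicate 3 libraries exceeded all others, although control replicates 1 and 2 of *Ndufaf6* also differed.

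*Ndufaf8*, the partner of *Ndufaf5*, had 7.32, 6.17 and 10.3 CPM in control and 6.25, 6.04 and 14.2 CPM in *Thada*-activated replicates, with a log2 difference of 0.92 and a standard error of 0.14. *Ndufs7*, the core subunit that carries the last iron-sulfur cluster before ubiquinone and that the product of *Ndufaf5* modifies, had 45.3, 38.1 and 83.6 CPM in control and 49.8, 51.5 and 69.6 CPM in *Thada*-activated replicates. Its log2 difference was 0.74 with a standard error of 0.11. *Ndufa7* had 31.3, 28.9 and 49.9 CPM in control and 34.7, 36.6 and 52.6 CPM in *Thada*-activated replicates, with 0.64 and a standard error of 0.07. All 6 genes were higher in replicate 3 than in the other libraries of either condition. Their log2 fold changes between conditions were from -0.07 to 0.17, but these depended on the libraries used. With replicates 1 and 2 only, *Ndufs7* was at 0.28, *Ndufa7* at 0.24 and *Ndufa6* at 0.18, while *Ndufaf6* was at 0.00, *Ndufaf5* at -0.02 and *Ndufaf8* at -0.13. The pairs of *Ndufs7* differed by 0.14, 0.43 and -0.26. With single libraries left out of the fit without a block, *Ndufa6* ran from -0.47 to 0.68 and *Ndufaf6* from -0.59 to 0.52. The ends of both ranges came from leaving out 1 replicate 3 library, which brings the replicate 3 difference into the condition difference. In blocked fits chosen after seeing the data, *Ndufa6* was at 0.15 without pair 1 and at -0.06 without pair 2. *Ndufaf6* was at -0.14 and -0.02 in the same fits.

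**Figure D3:**
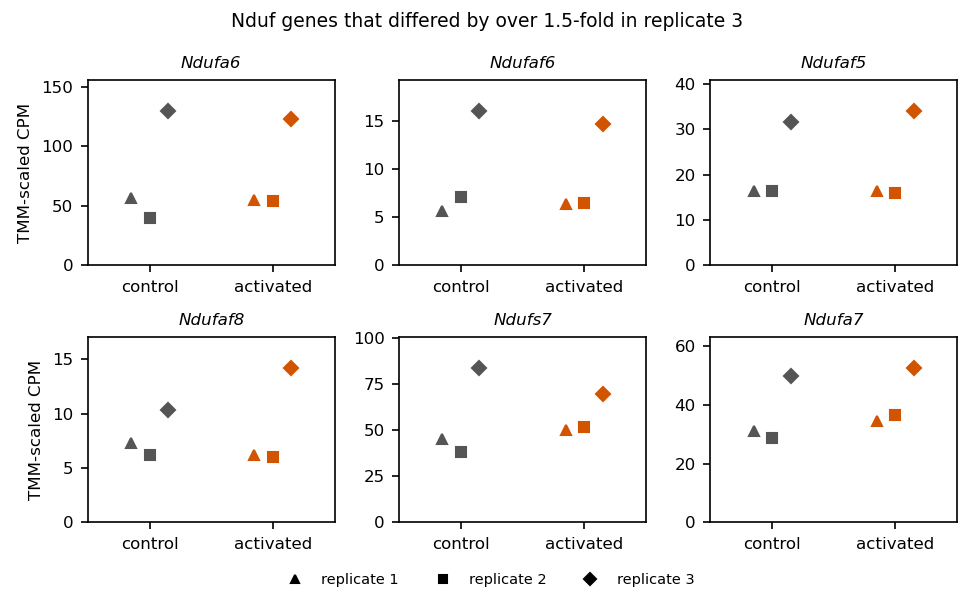
TMM-scaled CPM of the 6 Nduf genes that differed by over 1.5-fold between replicate 3 and replicates 1 and 2, in each control (grey) and Thada-activated (orange) library, with each vertical axis starting at 0. In every panel both replicate 3 libraries (diamonds) lie above the other 4, as for Ndufa6 at 130 and 123 CPM.

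The 5 members that were lower in replicate 3 did not reach the fold limit. *Ndufs1* and *Ndufa1* were at -0.36, with standard errors of 0.06 and 0.13. *Ndufa4* had 102, 99.5 and 79.5 CPM in control and 106, 109 and 88.3 CPM in *Thada*-activated replicates, a log2 difference of -0.31 with a standard error of 0.06. *Ndufb7* was at -0.25 with a standard error of 0.08, and *Ndufb2*, named after its values were seen, at -0.35 with 0.10. Members thus lay in both directions, with *Ndufs7* higher and *Ndufs1* lower within the core. Of all tested genes, 34.3% were higher and 34.4% lower at an adjusted edgeR p under 0.05, so this is not particular to the family.

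The 6 genes called higher in replicate 3 lie on separate chromosomes. In GENCODE M21 (GRCm38) *Ndufa6* is at chr15:82350140-82354322 on the minus strand, *Ndufaf6* at chr4:11051045-11076205 on the minus strand and *Ndufaf5* at chr2:140170649-140203689 on the plus strand. *Ndufaf8* is at chr11:120098928-120100705, *Ndufs7* at chr10:80249121-80256794 and *Ndufa7* at chr17:33824572-33838317, all on the plus strand. None of these 6 overlaps another gene of the deposited table there. Of the genes with a high difference between conditions, *Ndufa2* overlaps *Tmco6*, *Ndufb11* overlaps *Rbm10* and *Ndufa13* overlaps *Tssk6*, each on the opposite strand. Overlap was taken over whole genes, introns included, and shared exons were not examined. Strand use in the counting is not given in the sources used here, so whether such partners share reads is not known.

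Promoter windows from RefSeq (GRCm38.p6), from 250 bases before to 50 bases after each start, were matched by symbol for 41 members, with 43 windows. They were searched on both strands for exact letters known from binding sites of regulators of respiratory genes. The NRF1 letters GCATGCGC, part of its longer palindromic site, were in 11.6% of member windows and in 2.71% of all 32851 windows. The ETS letters CCGGAAG, as bound by GABPA, were in 14% and 8.86%, and the YY1 letters AAGATGGC, which include an ATG and can overlap a start codon, in 18.6% and 2.75%. The motifs were chosen after the values of the members were seen, and the NRF1 letters were shortened after a first search with a longer form. A match describes the letters and shows no binding. Of the genes called higher in replicate 3, *Ndufaf6* had no window, *Ndufa7* held no match, and *Ndufa6*, *Ndufaf5*, *Ndufaf8* and *Ndufs7* held matches, shown with *Ndufb8* as 30 bases each, 5′ to 3′ on the strand of the gene and with the matched letters in capitals. They lie at chr15:82354356-82354385 (minus strand), chr2:140170653-140170682 (plus), chr11:120098914-120098943 and chr11:120098933-120098962 (plus), chr10:80249462-80249491 (plus) and chr19:44555393-44555422 (minus).
*Ndufa6*, NRF1: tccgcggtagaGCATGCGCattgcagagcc
*Ndufaf5*, NRF1: gtcccgttggcGCATGCGCctaatagaaac
*Ndufaf8*, ETS: acgcgttcgactCCGGAAGaggcagggccc
*Ndufaf8*, YY1: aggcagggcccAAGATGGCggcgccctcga
*Ndufs7*, YY1: aggccgaggccAAGATGGCggcgctggcgg
*Ndufb8*, YY1: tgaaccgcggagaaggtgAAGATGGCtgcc

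Assembly factors of complex I without the *Nduf* prefix were taken from a separate list, of which 12 of 14 genes were in the table. Between conditions 0 of 12 were called by edgeR, with or without the block, and their median log2 fold change was 0.06, with 8 above 0. *Nubpl*, which delivers iron-sulfur clusters, was highest at 0.25 with a standard error of 0.33, and *Tmem126b*, a membrane arm factor, lowest at -0.20 with 0.20. In replicate 3, *Dmac2* at 0.84 and *Nubpl* at 0.76 were called higher and 0 genes lower, beside 15.7% and 15.4% of all tested genes.

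Of 8 nuclear regulators of respiratory genes, 0 were called between conditions and the median was -0.01. *Ppargc1b* was highest at 0.17 with a standard error of 0.15, and *Ppargc1a*, a coactivator of mitochondrial biogenesis, was lowest at -0.16 with 0.47. *Ppargc1a* had 8.9, 9.66 and 22.9 CPM in control and 9.12, 9.78 and 18.3 CPM in *Thada*-activated replicates. It was the only regulator of 8 called in replicate 3, beside 15.7% of all tested genes called higher, with a log2 difference of 1.13 and a standard error of 0.10, and both replicate 3 libraries lay above the other 4. Below the fold limit, the others went both ways in replicate 3. *Esrra* and *Yy1* were at 0.47 and 0.46, with standard errors of 0.09 and 0.07, and *Ppargc1b* was at 0.12. *Pprc1* was at -0.35, *Nrf1* at -0.24, *Gabpa* at -0.21 and *Tfam* at -0.17.

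The same comparison between conditions was made for the other respiratory complexes, to set the family beside them. No gene of these lists was called by edgeR, with or without the block, and 1 of them, in ATP synthase, had an unadjusted p under 0.05 without it. With the block, such p-values were found for 6 of 16 genes of ATP synthase, 5 of 14 of complex IV, 2 of 9 of complex III, 0 of 4 of complex II and 4 of 78 ribosomal proteins, all higher, beside 11 of 46 *Nduf* genes and 6.06% of all tested genes. The median log2 fold change was 0.02 for 4 genes of complex II, 0.08 for 9 of complex III, 0.07 for 14 of complex IV, 0.08 for 16 of ATP synthase and 0.01 for 78 mitochondrial ribosomal proteins. The difference between these medians and the 0.09 of the *Nduf* genes was not tested. In complex III the ends were *Uqcr11* at 0.45 and *Uqcrc2* at -0.09, and in ATP synthase *Atp5k* at 0.59 and *Atp5a1* at -0.02. In complex IV they were *Cox7a1* at 0.51 and *Cox7b2* at -0.66, both at or below 3.07 CPM in every library. Complex II ran from -0.01 for *Sdhc* to 0.06 for *Sdhb*, and the ribosomal proteins from -0.19 for *Mrpl47* to 0.29 for *Mrpl52*. In bulk RNA, fewer cells of a type and less RNA per cell cannot be told apart.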

How the data were processed

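The authors deposited an estimated count per gene for each library, not normalized, and a table of all 6 libraries with FPKM values. The submitters' processing notes name Bowtie2, RSEM, DESeq2 and the build GRCm38. The log2 fold changes, p-values and q-values of the authors' own comparison in that table were not used, nor were its TPM values. In R 4.3.3, each estimated count was rounded to an integer. After filterByExpr and TMM scaling, edgeR 4.0.16 (quasi-likelihood, robust) tested the genes, with Benjamini-Hochberg adjustment over all tested genes. A gene was called at an adjusted p under 0.05 and a fold change over 1.5. Condition was the only term, or, for replicate 3 against replicates 1 and 2, condition and a replicate 3 term. DESeq2 1.42.0, limma 3.58.1 on log2(FPKM + 1) and log2(FPKM + 0.1), other filters and library sizes, and fits without each library were alternatives. Fitting functions were tested on simulated counts.

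Deviations from the condition mean of same-numbered libraries had correlations across genes of 0.667, 0.671 and 0.869, so the numbers, taken from the sample titles, were treated as pairing the libraries, and the replicate block, which called 19 genes, is given beside the results. Crossing replicates 1 and 2 gave 0.705 and 0.726, so the pairing mainly separates replicate 3. Counts of libraries of a condition differed beyond sampling noise in chi-square tests of each pair.

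The members and lists were chosen with earlier results of these data known. Named genes were *Thada*, the 7 core subunits, every assembly factor with the *Nduf* prefix, *Ndufa4* and *Ndufa4l2*, the supernumerary subunits with the 4 highest and 4 lowest log2 fold changes and the 3 highest and 3 lowest mean FPKM, members that failed the filter or were called, and the highest and lowest gene of each other list. The single values of 1 member are not reported here, and it stays in the counts and medians.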

Additional observations from a re-analysis of the deposited data

How the results depend on the processing

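Without a block, edgeR called 0 genes between conditions, with 101 at an unadjusted p under 0.05, and DESeq2 called 5. The replicate block called 19, or 28 without a fold limit. With replicates 1 and 2 only, 68 genes were called, and 70 with the block. Blocked fits chosen after seeing the data called 43 without pair 1 and 18 without pair 2. Leaving out each library called from 0 to 0 genes. The cause of these changes was not tested. The members' median log2 fold change ran from -0.001 to 0.172 over the fits without a library, and from 0.069 to 0.147 over the others. The count of members above 0 ran from 21 to 41 without a library. Replicate 3 differed in 3893 genes, from 3648 to 4080 without a library, in 2835 by limma on FPKM, in 4244 without a filter, in 3636 with at least 10 counts in every library, and in 8592 without the fold limit, a change that follows from the limit itself. The members' median there ran from 0.084 to 0.168 and the count above 0 from 31 to 34 without a library. Of 540 log2 fold changes of 30 named genes under other settings, 49 had the opposite sign, in 16 genes. The block changed no call of a member. Conditions with 3 libraries and lowly counted assembly factors limit the precision.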
